A study of Homo sapiens with 8 samples.

Results

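A small set of SMAD2 binding regions that lay close to a TEAD4 region without touching it was examined in WA09, an established line of human embryonic stem cells. These regions were chosen by position from the SMAD2 list of DMSO-treated cells. A region was taken when it overlapped no TEAD4 region of the same cells and its midpoint lay 200 to 1000 bp from the midpoint of one of rows 1 to 20000 of the TEAD4 list. The rule found 4652 of the 420548 SMAD2 regions (1.11%). They are called the SMAD2 regions beside TEAD4 here, and the TEAD4 region that put each of them in the set is called its TEAD4 neighbour. Cells had received DMSO, the solvent, or 10 µM SB431542 for 4 h, and chromatin immunoprecipitation with antibodies to SMAD2 or TEAD4 was followed by sequencing. Of the 8 samples that the labels list, each a single library, 3 were used through their region lists. These were the SMAD2 and TEAD4 precipitates of DMSO cells and the TEAD4 precipitate of SB431542 cells. SMAD2 under SB431542, input DNA and normal rabbit IgG were not analysed here. All cells were WA09, so that every value comes from 1 cell line.

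SMAD2 carries signals of the activin, Nodal and TGF-β family. Active type I receptors phosphorylate it, it then joins SMAD4 and enters the nucleus, and there it relies on partner factors such as FOXH1. SB431542 blocks these receptors. TEAD4 is a DNA-binding factor of the Hippo pathway and recruits the co-activators YAP and TAZ. In human embryonic stem cells the activin and Nodal branch helps to keep the pluripotent state. SMAD2 and TEAD factors have been studied there as factors that meet at shared enhancers. The regions described here are those near a TEAD4 region but outside it.

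The lists hold positions only, with no height, score or read count, and there is 1 library per group. No test between groups was therefore possible. The 95% intervals below reflect the counting of regions alone and treat regions as independent. SMAD2 regions covered 66.6 Mb of the genome and the 289380 TEAD4 regions of DMSO cells 60.01 Mb. The read depth is unknown. Row order was read as a ranking because the widths fell down each list. The lists of DMSO cells lie on a 50 bp grid and the list of SB431542 cells does not, so that treatment and the making of the list cannot be told apart. Positions are on hg19. No sequence or gene annotation of that build was used here, and the regions are given without sequence, gene or motif.

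The first question was whether SMAD2 regions gathered beside TEAD4 regions as they did on them. They did so very little. Within 100 bp of a TEAD4 midpoint (rows 1 to 20000) the density of SMAD2 midpoints was 1.94 times (1.82 to 2.06) that found 2 to 10 kb away from the same TEAD4 regions. It was 1.38 times (1.29 to 1.48) at 100 to 200 bp and 1.07 times (0.985 to 1.15) at 200 to 300 bp. At 300 to 400 bp it was 0.988 times (0.910 to 1.07) and at 400 to 600 bp 1.07 times (1.01 to 1.13). It was 1.01 times (0.950 to 1.07) at 600 to 800 bp and 1.03 times (0.977 to 1.09) at 800 to 1000 bp. Over the whole stretch from 200 to 1000 bp the ratio was 1.03 (1.005 to 1.07), or 158 SMAD2 midpoints per kb per 1000 TEAD4 regions against 153 in the surroundings. The interval included 1 when only TEAD4 rows 1 to 10000 were used (0.9993, 0.958 to 1.04). At 1000 to 2000 bp it was also 1.03 (1.003 to 1.06).

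When only SMAD2 regions that overlap no TEAD4 region were counted, as in the rule, the ratio from 200 to 1000 bp was 0.982 (0.952 to 1.01). The rule itself lowers this number near 200 bp, since a SMAD2 region so close often overlaps the TEAD4 region and is then left out. Between 200 and 300 bp the ratio was 0.716, and from 300 to 1000 bp it was 1.02 (0.988 to 1.05). The number of SMAD2 regions beside TEAD4 was therefore about that given by the density of the SMAD2 list in the same neighbourhoods.

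**Figure D1:**
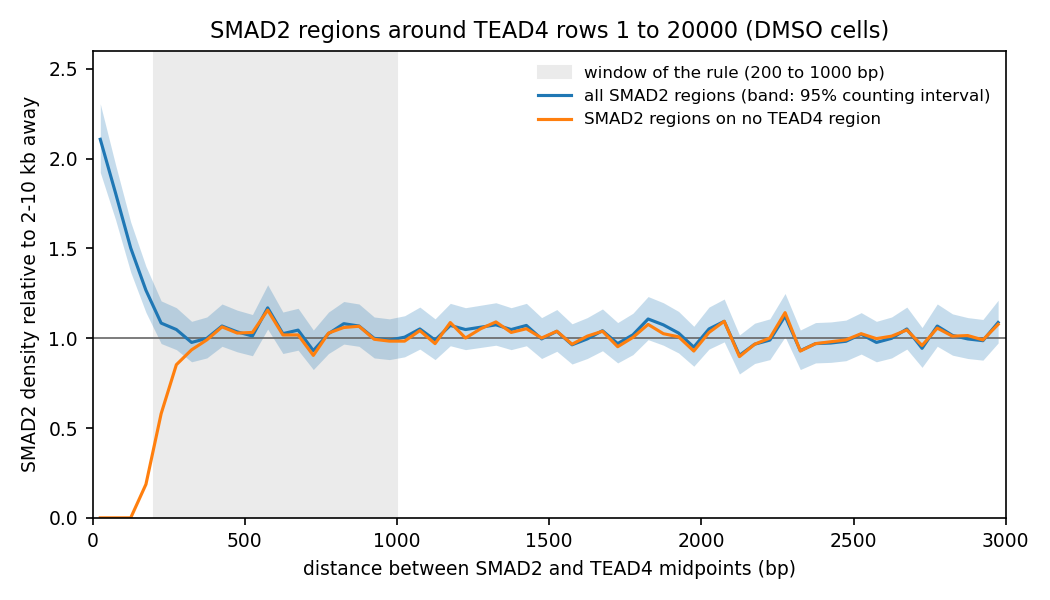
Density of SMAD2 midpoints (vertical axis, relative to the density 2 to 10 kb away) against their distance from the midpoints of TEAD4 rows 1 to 20000 (horizontal axis, bp, in steps of 50 bp), for all SMAD2 regions with their 95% counting interval and for those on no TEAD4 region. The density falls from 2.11 in the first step to 1.08 at 200 to 250 bp, and inside the shaded window 15 of 16 steps have an interval that includes 1.

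The density of all SMAD2 regions near TEAD4, overlapping ones included, showed no steady trend with the rank of the TEAD4 region. At 200 to 1000 bp it was 1.03 times the surroundings for TEAD4 rows 1 to 1000 (0.902 to 1.18) and 1.03 times for rows 1001 to 5000 (0.962 to 1.10). For rows 5001 to 10000 it was 0.971 times (0.914 to 1.03) and for rows 10001 to 20000 it was 1.07 times (1.03 to 1.11). Lower rows, which the rule did not use, gave 1.03 (1.02 to 1.05) for rows 20001 to 100000 and 1.07 (1.06 to 1.08) for the rows after them. The interval of this last range lay above those of rows 5001 to 10000 and 20001 to 100000. Within 100 bp the ratios in the same order were 2.01, 2.03, 1.78, 1.97, 1.83 and 1.58. The intervals of the first 4 overlap, and the last range was the lowest.

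Along the SMAD2 list the first 10% of rows had a ratio of 1.15 (1.05 to 1.26) at 200 to 1000 bp, the highest of the 10 steps. The other 9 steps lay between 0.965 and 1.07, each with an interval that includes 1. The same first rows had a ratio of 2.58 (2.17 to 3.06) within 100 bp. Of the ratios by step at 200 to 1000 bp, the one of the first rows was singled out after its value was seen, and it is 1 of 10. All these ratios also count SMAD2 regions that overlap a TEAD4 region, unlike the set beside TEAD4. Over the whole list the ratio was 1.03 with such regions and 0.982 (0.952 to 1.01) without them. By step it was not computed without them.

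**Figure D2:**
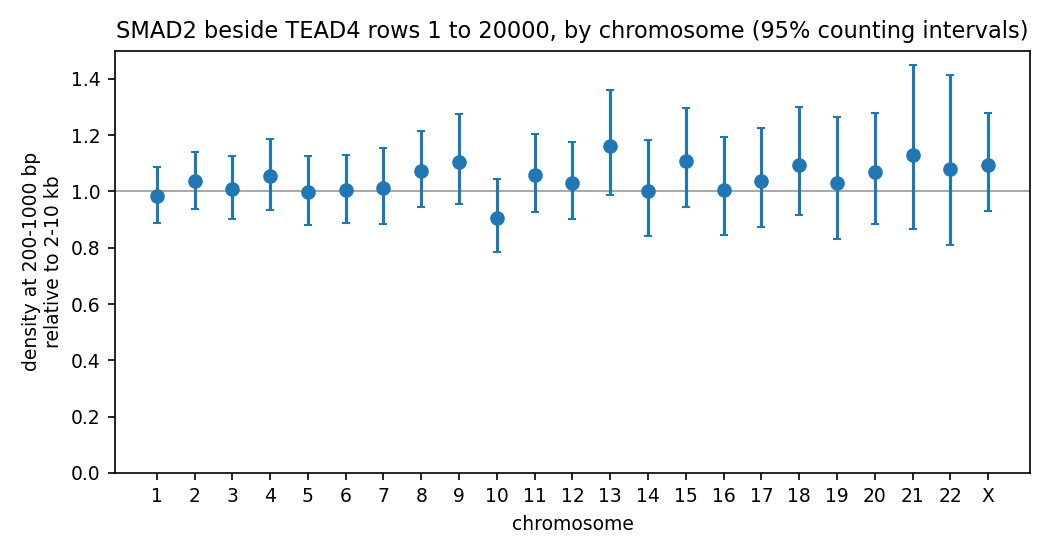
Density of SMAD2 midpoints 200 to 1000 bp from TEAD4 rows 1 to 20000, relative to 2 to 10 kb away (vertical axis), for each of 23 chromosomes (horizontal axis). Points are ratios and bars 95% counting intervals, and all 23 intervals include 1. SMAD2 regions that overlap a TEAD4 region are counted too.

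By this ratio, which also counts SMAD2 regions that overlap a TEAD4 region, no chromosome differed from its surroundings beyond counting error. The ratio ran from 0.907 on chromosome 10 (0.785 to 1.04) to 1.16 on chromosome 13 (0.988 to 1.36), and the interval of each of the 23 chromosomes examined included 1. As a share of a chromosome's SMAD2 regions, those beside TEAD4 made up between 0.978% on chromosome 22 and 1.35% on chromosome 15 (1.16 to 1.57%, an interval that excludes the 1.11% of the whole list, for 1 of 23 chromosomes singled out as the highest). Chromosome Y was left out of these ranges because it held 2 such regions.

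Among themselves the regions beside TEAD4 varied in distance and gap as follows. Their median distance from the TEAD4 midpoint was 600 bp (interquartile range 425 to 800 bp), and the median gap between their edges was 351 bp (201 to 551 bp). The smallest gap was 1 bp, which on the 50 bp grid means that the regions adjoin, and 272 of the 4652 did so. Gaps of 51, 101 and 151 bp occurred 275, 261 and 276 times, but the limit of 200 bp between midpoints removes some of the closest ones. Without that limit, 323 SMAD2 regions on no TEAD4 region adjoined one of TEAD4 rows 1 to 20000. At 51, 101 and 151 bp there were 278, 261 and 276, fewer than at 1 bp, and at 201, 251 and 301 bp there were 313, 326 and 326. At the limits of the rule, 66 regions lay at 200 bp and 124 at 1000 bp, and just outside it 45 SMAD2 regions on no TEAD4 region lay at 175 bp and 158 at 1025 bp. TEAD4 rows 19001 to 20000 were the neighbours of 219 of the regions, and rows 20001 to 21000 would have added 252.

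In width they matched the whole SMAD2 list. The median was 149 bp with an interquartile range of 99 to 199 bp, the same values as over all SMAD2 regions, and the mean was 157 bp against 158 bp. The narrowest class of 99 bp held 1729 of them (37.2%, against 37.2% of all SMAD2 regions), and 2 reached 549 bp, the widest. SMAD2 regions on TEAD4 rows 1 to 20000 were wider, with a mean of 176 bp, but a wide region is also more likely to overlap another one. Width is therefore no independent measure between these groups.

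As a whole the regions beside TEAD4 did not differ detectably from those further away in their share of the first SMAD2 rows. Their median row was 213112 of 420548, compared with 210274 over the whole list and 210774 for the 41917 SMAD2 regions that lay 2 to 10 kb from the nearest of the same TEAD4 rows and on no TEAD4 region. The first 10% of the SMAD2 rows held 485 of them (10.4%, 9.58 to 11.3%). This differed by 0.52 percentage points from the share of the regions 2 to 10 kb away, with an interval of -0.38 to 1.47 that includes 0. Of the 1579 regions closer than 500 bp to the neighbour's midpoint 7.73% (6.51 to 9.15%) were in the first 10%, and of the 3073 at 500 bp or more 11.8% (10.7 to 13.0%) were, a difference of -4.09 points (-5.79 to -2.29). The closer regions were narrower (mean 152 against 160 bp), and at equal width the difference was -2.11 points (-3.51 to -0.70). The comparison by distance was added after the data were seen. Distance and overlap were also used by the rule. Close to TEAD4 the rule leaves out SMAD2 regions that overlap it, and a wide region is more likely to overlap. Width and row went together within the set (Spearman's rho -0.761). The part of the rule in the difference by distance was not tested. The 2102 SMAD2 regions on TEAD4 rows 1 to 20000 had a median row of 178816, and 13.7% (12.3 to 15.3%) were in the first 10%. The regions beside TEAD4 minus those on TEAD4 gave a difference of -3.32 points (-5.08 to -1.65). Between regions of equal width it was 0.80 points (-0.41 to 2.01), in the other direction and not distinguishable from 0. The row of a region and the row of its TEAD4 neighbour were nearly unrelated (Spearman's rho 0.011 over 4652 pairs from the same 2 libraries, given as a description).

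**Figure D3:**
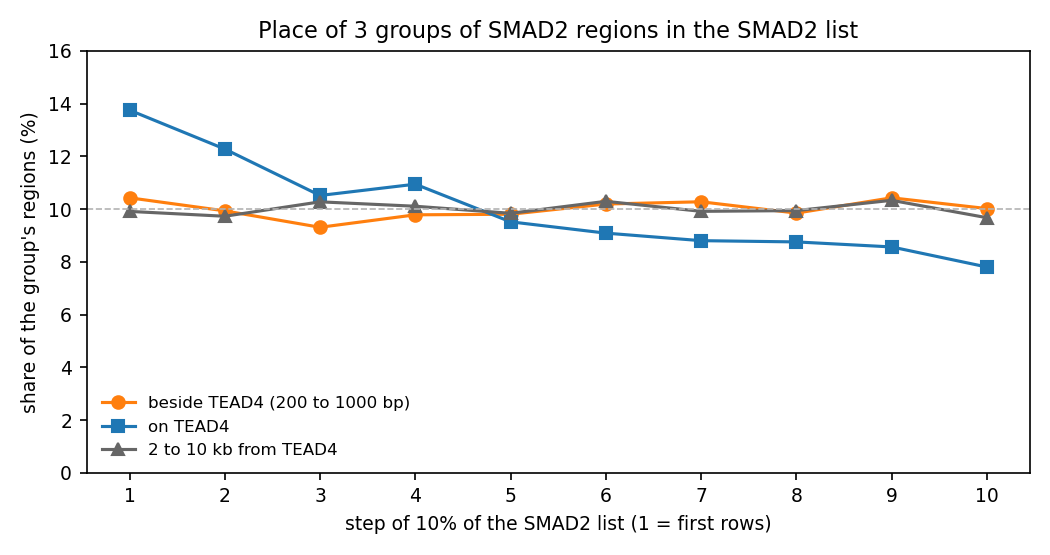
Share of each group's regions (vertical axis, percent) in each 10% step of the SMAD2 list (horizontal axis, 1 for the first rows), for SMAD2 regions beside TEAD4, on TEAD4 and 2 to 10 kb away. The regions beside TEAD4 stay between 9.31% and 10.4% in all steps, whereas those on TEAD4, which are wider, fall from 13.7% to 7.80%.

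The next comparison used the TEAD4 list of SB431542-treated cells, which had no part in the choice of regions. SMAD2 regions beside TEAD4 in DMSO cells were somewhat more often on a TEAD4 region of SB431542 cells than SMAD2 regions further away, and far less often than SMAD2 regions on TEAD4. Over the whole SMAD2 list 3.39% of regions overlapped a TEAD4 region of SB431542 cells by at least 1 bp. Of the regions beside TEAD4, 217 did (4.66%, 4.10 to 5.31%). Of those 2 to 10 kb away, 1509 did (3.60%, 3.43 to 3.78%), which makes a difference of 1.06 percentage points (0.47 to 1.73). Of the SMAD2 regions on TEAD4, 284 did (13.5%, 12.1 to 15.04%), and the regions beside TEAD4 minus these gave -8.85 points (-10.5 to -7.31). These groups were parted by overlap with TEAD4 regions of DMSO cells, and those on TEAD4 were wider (mean 176 against 157 bp). The part of either in this difference of -8.85 points was not tested. The difference of 1.06 points lay within the counting error when all TEAD4 rows were used in the rule (0.15 points, -0.0096 to 0.31). With TEAD4 rows 1 to 5000 it was 1.86 points (0.64 to 3.37) and with rows 1 to 10000 1.21 points (0.35 to 2.21). With rows 1 to 50000 it was 0.65 points (0.29 to 1.04). These sets of rows contain one another, and a trend with the TEAD4 row was not tested.

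All 8 distance steps of 100 bp between 200 and 1000 bp had a share above 3.60%, from 3.92% at 600 to 700 bp to 5.61% at 400 to 500 bp, but the intervals of the steps overlap each other. From 1000 bp to 10 kb the shares lay between 3.34% and 3.88%. TEAD4 regions of SB431542 cells were themselves denser in the same window, at 1.13 times (1.09 to 1.17) their density 2 to 10 kb away, and the part of this in the higher share was not tested. In 18 of the 217 cases (8.29%) the SB431542 region also reached a TEAD4 region of DMSO cells. With all such SB431542 regions set aside, the difference from the regions 2 to 10 kb away was 0.72 points (0.15 to 1.37).

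**Figure D4:**
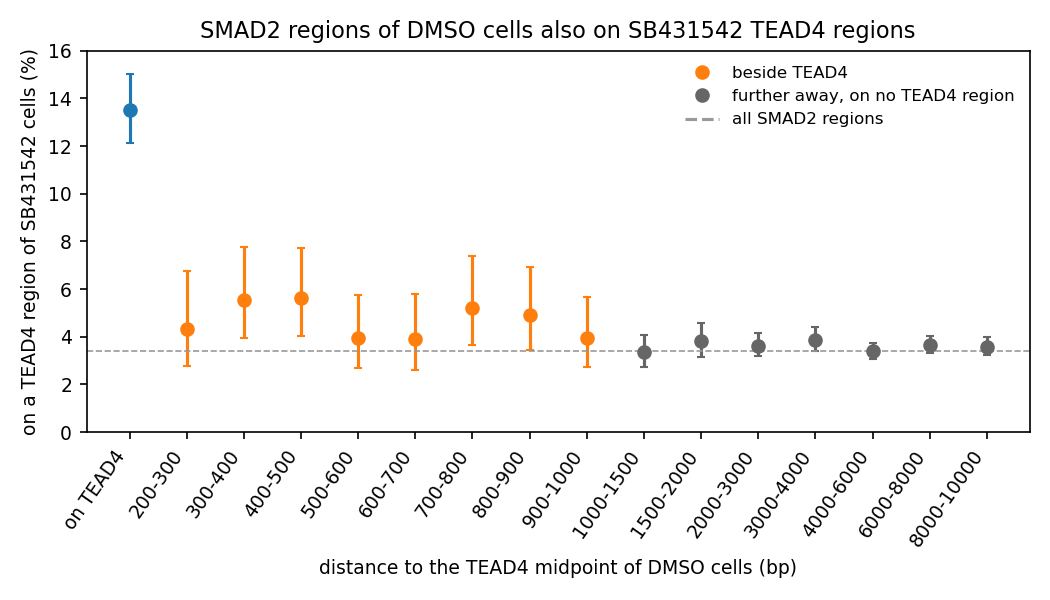
Share of SMAD2 regions of DMSO cells that overlap a TEAD4 region of SB431542 cells (vertical axis, percent, with 95% Wilson intervals) by distance from the TEAD4 midpoint in DMSO cells (horizontal axis, bp). The point for SMAD2 on TEAD4 is at 13.5%, the points beside TEAD4 are between 3.92% and 5.61%, those further away between 3.34% and 3.88%, and the dashed line marks 3.39% of all SMAD2 regions.

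The share was also compared by the TEAD4 neighbour, a comparison added after the data were seen. Where the neighbour itself overlapped a TEAD4 region of SB431542 cells, 51 of 665 regions beside it (7.67%, 5.88 to 9.94%) were on an SB431542 region. Where it did not, 166 of 3987 were (4.16%, 3.59 to 4.83%), a difference of 3.51 points (1.60 to 5.85). In 17 of the 51 cases the SB431542 region also reached a TEAD4 region of DMSO cells. Without such SB431542 regions the shares were 5.11% (34 of 665) and 4.14% (165 of 3987), and the interval of their difference, 0.97 points (-0.60 to 3.004), includes 0. The SB431542 regions under the SMAD2 regions beside TEAD4 had a median row of 116350, against 131055 for their list as a whole. The first of them was row 1679. Of the 217 SMAD2 regions, 26 (11.98%, 8.31 to 17.0%) were on the first 10% of SB431542 rows, an interval that includes 10%.

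Seen from TEAD4, a SMAD2 region lay beside 4285 of rows 1 to 20000 (21.4%). One such region was found at 3905 of them, 2 at 368 and 3 at 12, and none had more. SMAD2 regions lay on both sides of 259 TEAD4 regions. The side was balanced over the whole set, with 2304 at higher and 2348 at lower coordinates than the neighbour. Near the head of the SMAD2 list it was not: 19 of the 20 regions within the first 2000 SMAD2 rows lay on the higher side. Within the first 5000 rows 34 of 51 did, and within the first 10000 rows 59 of 100. A wider count took TEAD4 regions of the whole list and also kept SMAD2 regions that overlap a TEAD4 region. With it, the first 2000 SMAD2 rows gave 201 pairs on the higher and 182 on the lower side. It thus differs from the counts above in more than the TEAD4 rows. The coordinate side has no biological direction, and the count of 19 of 20 was singled out after its value was seen.

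A SMAD2 region beside a TEAD4 region did not go with more SMAD2 on it. Of TEAD4 rows 1 to 20000, 10.4% overlapped a SMAD2 region. Among the 4285 rows with a SMAD2 region beside them 402 did (9.38%, 8.54 to 10.3%), and among the 15715 others 1673 did (10.6%, 10.2 to 11.1%), a difference of -1.26 points (-2.24 to -0.24). No SMAD2 regions were closer to each other than 51 bp, so that a SMAD2 region on TEAD4 takes up part of the room beside it, and its part in this difference was not tested. The regions beside TEAD4 had another SMAD2 region nearby slightly more often than those further away. Over all SMAD2 regions 22.1% had another SMAD2 midpoint within 1 kb, against 1173 of those beside TEAD4 (25.2%, 24.0 to 26.5%) and 22.7% (22.3 to 23.2%) of those 2 to 10 kb away, a difference of 2.47 points (1.18 to 3.80). These nearby regions included ones on the TEAD4 neighbour. When only SMAD2 regions on no TEAD4 region were counted as nearby, the shares were 17.3% (16.3 to 18.5%) and 21.8% (21.4 to 22.1%), a difference of -4.40 points (-5.54 to -3.22). The TEAD4 neighbour takes room in which such regions cannot lie, and its part in the difference was not tested.

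Whether TEAD4 was called again under SB431542 did not depend detectably on a SMAD2 region beside it. Of TEAD4 rows 1 to 20000, 15.1% overlapped an SB431542 region. Among those with a SMAD2 region beside them 617 did (14.4%, 13.4 to 15.5%), and among the others 2406 did (15.3%, 14.8 to 15.9%), a difference of -0.91 points with an interval of -2.08 to 0.31 that includes 0. Both groups had a median width of 299 bp, and their median rows were 10357 and 9900. At equal place in the row order the difference was -0.59 points (-1.71 to 0.53). Among rows 1 to 1000 it was -7.88 points (-15.4 to -0.68), from 125 of 200 rows with a SMAD2 region beside them (62.5%) and 563 of 800 without (70.4%). In rows 1001 to 5000 it was 0.34 points (-2.60 to 3.50), in rows 5001 to 10000 -0.39 points (-2.51 to 1.95) and in rows 10001 to 20000 -0.30 points (-1.61 to 1.12). The first step is thus 1 of 4, and the others did not share its size.

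The single regions below were named by the smallest sum of both rows. These are 10 pairs on 9 chromosomes, with 325 to 1000 bp between midpoints and gaps of 51 to 701 bp, and in all 10 the SMAD2 region was on the higher side. This side does not describe the set, since among the 100 smallest sums 57 were on the higher side and 43 on the lower. Their rows were part of the choice and are given as a description. The TEAD4 neighbour was called again under SB431542 in 4 of the 10, and the SMAD2 region itself was on an SB431542 region in 1. Over all features these shares are 15.1% of TEAD4 rows 1 to 20000 and 3.39% of SMAD2 regions, and nothing is read from counts over 10 pairs chosen by rank.

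The first pair was on chromosome 2. Its SMAD2 region at 30875901 to 30876199 (row 977) and its TEAD4 region at 30875201 to 30875499 (row 778) were both 299 bp wide and 401 bp apart. TEAD4 was called there again in SB431542 cells at 30875223 to 30875459 (row 1391), within the DMSO region, and nothing was called under SB431542 at the SMAD2 region. The second pair was also on chromosome 2, with a SMAD2 region at 29180351 to 29180649 (row 1133) and its neighbour at 29179201 to 29179799 (row 794). Its midpoints were 1000 bp apart, at the limit of the rule, and the SB431542 region at 29179300 to 29179497 (row 5779) lay in the lower part of the TEAD4 region. On chromosome 7, SMAD2 at 73041901 to 73042149 (row 1900) stood beside a TEAD4 region of 649 bp at 73040851 to 73041499 (row 2119). This TEAD4 region also held a SMAD2 region far down the list (row 93003), the only one of the 10 that did, and it was not called again.

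Chromosome 11 held the pair that was called on both sides under SB431542. SMAD2 at 945851 to 946099 (row 3799) was on an SB431542 TEAD4 region (row 3685), and its TEAD4 neighbour at 944851 to 945149 (row 2046) was called again at 944940 to 945209 (row 767). On chromosome 10, SMAD2 at 95551001 to 95551249 (row 907) lay 351 bp from TEAD4 at 95550251 to 95550649 (row 3737), which was called again at 95550372 to 95550619 (row 2021). The closest of the 10 pairs was on chromosome 6, where 51 bp separated SMAD2 at 158452801 to 158453099 (row 1994) from the TEAD4 region at 158452501 to 158452749 (row 3270). The other 4 pairs had their SMAD2 region at 14956801 to 14957099 of chromosome 12 (row 1243), at 115000201 to 115000599 of chromosome 3 (row 1645), at 33724851 to 33724999 of chromosome 13 (row 1486) and at 64546401 to 64546649 of chromosome 17 (row 7113). None of these 4 TEAD4 neighbours was called again under SB431542. The last of them had the first TEAD4 row of the 10 pairs, at 64545951 to 64546299 (row 491).

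**Figure D5:**
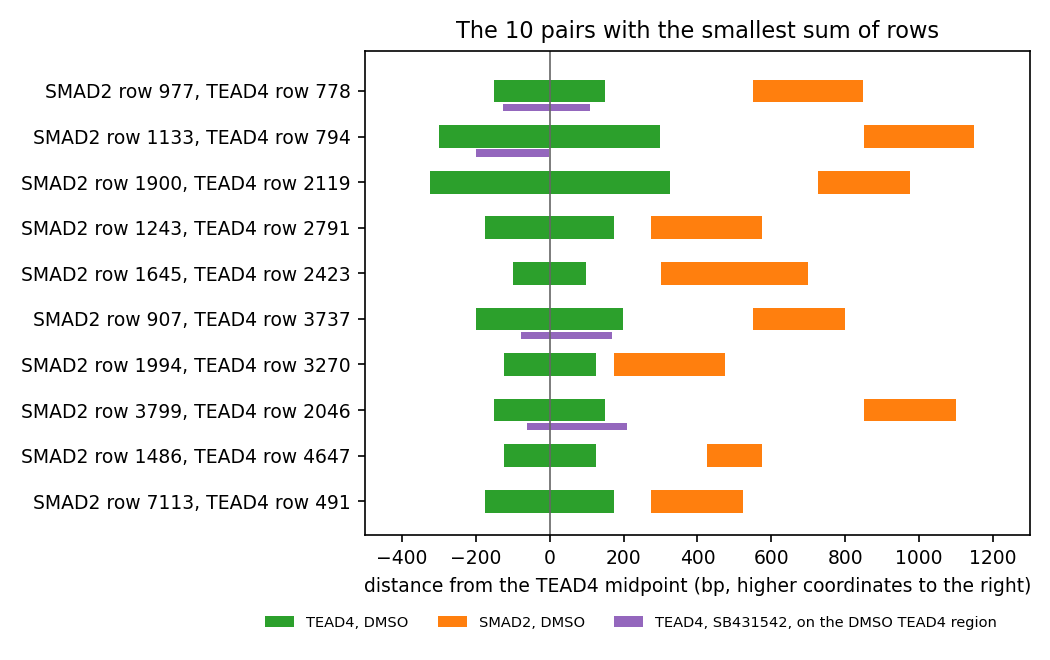
The 10 pairs with the smallest sum of SMAD2 and TEAD4 rows, drawn to scale along the distance from the TEAD4 midpoint (horizontal axis, bp), 1 pair per line. All 10 SMAD2 regions are at higher coordinates, and an SB431542 TEAD4 region lies on the TEAD4 neighbour in 4.

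Among TEAD4 regions with SMAD2 on both sides, the first in the list was row 21 on chromosome 12 at 79940951 to 79941399. A SMAD2 region adjoined it at 79940801 to 79940949 (row 327310), and another lay at 79941751 to 79941849 (row 314387). TEAD4 was called there again under SB431542 at 79941045 to 79941354 (row 610). The next was row 112 on chromosome 7 at 33756151 to 33756599, between SMAD2 at 33755851 to 33755949 (row 414148) and 33757201 to 33757349 (row 146012), and it was not called again. Row 315 on chromosome 4, at 97657501 to 97657999, had SMAD2 on both sides (rows 241299 and 125014) and a further SMAD2 region on it (row 397145). It was called again under SB431542 (row 150168). A second region of chromosome 4, row 414 at 159942801 to 159943149, had SMAD2 rows 234642 and 50496 beside it and was not called again. Row 436 on chromosome 2, at 44657351 to 44657849, had SMAD2 rows 316009 and 52100 at gaps of 51 bp on both sides. This TEAD4 region was called again under SB431542 (row 74712). These 10 SMAD2 regions were all outside the first 10% of their list, though some of the TEAD4 regions were near the head of theirs. Of the 259 TEAD4 regions with SMAD2 on both sides, 23 also had a SMAD2 region on them (8.88%, 5.99 to 13.0%), near the 10.4% of TEAD4 rows 1 to 20000.

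The first 3 of the 12 TEAD4 regions with 3 SMAD2 regions beside them were row 3628 at 95171401 to 95171649 of chromosome 10 and, both on chromosome 19, row 4043 (5636001 to 5636349) and row 4285 (36963951 to 36964499). None of them was called again under SB431542, and none had a SMAD2 region on it. The SMAD2 regions around the first were rows 341830, 67283 and 197895. Those around the second were rows 401838, 355071 and 261755. The third had rows 277566, 266530 and 25763, the last of which was the 1 of these 9 SMAD2 regions in the first 10% of the list, 199 bp wide at 36965001 to 36965199.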

How the data were processed

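The authors deposited 3 region lists with 3 columns and no header (chromosome, start and end in bp, with no score, read count or p-value). Each list was tied to a sample by the target and treatment in its name. Per the submitters' processing notes, hg19 was the build. How reads were aligned, regions called and controls used is not given in the sources used here. Starts are printed raised by 1 bp, and widths are end minus start. Overlap means at least 1 bp. Distances between regions on the grid are multiples of 25 bp. Densities count all pairs of midpoints from the lower limit up to, but not at, the upper limit and are divided by the distances that can occur on this grid. The rule includes both limits. Shares have Wilson intervals, differences Newcombe intervals, and ratios exact conditional intervals, all at 95%. For TEAD4 called again, values at equal place use 20 steps of 1000 TEAD4 rows, weighted by the rows with a SMAD2 region beside them. For the SB431542 overlap of SMAD2 regions they use the 10 steps of the SMAD2 list, weighted by the regions beside TEAD4. Named regions are the 10 smallest sums of rows, the first 5 TEAD4 rows with SMAD2 on both sides and the 3 with the most SMAD2 regions beside them. The set, the rule and the comparisons were chosen with earlier results of these data known. The counting functions were tested on simulated data. Gene, promoter and motif shares need hg19 sequence or annotation, and the table at hand is on GRCh38, so they were not run. Python 3.11.15, NumPy 2.4.6, SciPy 1.17.1, pandas 2.3.3 and matplotlib 3.10.9 were used.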

Additional observations from a re-analysis of the deposited data

How the results depend on the processing

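The number of SMAD2 regions beside TEAD4 follows the limits of the rule by construction. It was 1742 for midpoints 200 to 500 bp apart, 3088 for 500 to 1000 bp, 1133, 2236 and 11718 for TEAD4 rows 1 to 5000, 10000 and 50000, 65724 for all TEAD4 rows, and 2291 in the first 50% of SMAD2 rows. The density ratio of 1.03 at 200 to 1000 bp was close to 1 throughout (0.982 to 1.06 over 10 alternatives). It was below 1 with TEAD4 rows 1 to 10000 (0.9993) and with SMAD2 regions on no TEAD4 region (0.982). Its interval included 1 with rows 1 to 5000 (1.03), without the widest 1% of regions (1.03) and at 300 to 1000 bp (1.03). The share of the regions in the first 10% of SMAD2 rows was 7.98% (6.80 to 9.35%) at 200 to 500 bp, 11.8% (10.7 to 13.0%) at 500 to 1000 bp, 11.4% with TEAD4 rows 1 to 5000 and 9.49% with all TEAD4 rows, and the cause was not tested. At equal width the difference in this share between regions beside and on TEAD4 (-3.32 points) became 0.80 points, and that between regions closer and further than 500 bp (-4.09 points) became -2.11 points. The difference in SB431542 overlap by the TEAD4 neighbour (3.51 points) was 0.97 points, within counting error, without SB431542 regions that reach a TEAD4 region of DMSO cells. The median width was 149 bp in all 10 alternatives. The difference in overlap with SB431542 TEAD4 regions had an interval above 0 in 17 of 18 alternatives (0.43 to 1.91 points among the planned ones), and not with all TEAD4 rows (0.15). The difference in TEAD4 called again was between -1.69 and -0.092 points in 10 alternatives, each with an interval that includes 0. The added alternatives (SMAD2 on no TEAD4 region, 300 to 1000 bp, equal width or place, SB431542 regions that reach a TEAD4 region of DMSO cells set aside, and other comparison groups for the SB431542 overlap) were chosen after seeing the data. So were the difference between regions closer and further than 500 bp and that by the TEAD4 neighbour. No paired analysis was possible because there was a single library in every group, which also means that none could be left out. With the depth unknown, a missing region was only not detected.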

Other observations

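TEAD4 regions had a different surround of their own kind. Around rows 1 to 20000 the other TEAD4 regions of DMSO cells were less dense at 200 to 1000 bp (0.935 times the density 2 to 10 kb away, 0.901 to 0.969), where the room taken by the TEAD4 region itself counts, and denser at 1000 to 2000 bp (1.08, 1.05 to 1.12). TEAD4 regions of SB431542 cells, which are not held apart from those of DMSO cells, were 4.86 times as dense within 100 bp (4.65 to 5.08), 1.99 times at 100 to 200 bp (1.86 to 2.13) and 1.06 times at 1000 to 2000 bp (1.02 to 1.09). For SMAD2 the value at 1000 to 2000 bp was 1.03 (1.003 to 1.06). The differences between these ratios were not tested. Of the SMAD2 regions beside TEAD4, 33 (0.709%) lay close (up to 500 kb) to a stretch of 1 Mb or more in which none of the lists had a region, against 0.652% of all SMAD2 regions.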
